A study of Mus musculus with 6 samples.

Results

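The mitochondrial carrier family, named Slc25a with a number, is a group of membrane proteins that move small molecules across the inner mitochondrial membrane. Its members were taken as every gene of the deposited count table whose Ensembl identifier belongs to a protein-coding mouse gene with a symbol that starts with Slc25a and a number. This gave 47 genes of 49315 in the table, of which 21734 were protein-coding. Enough reads for a test between genotypes were present for 39 of the 47, and the remaining 8 are described by their reads. The study sequenced RNA from 6 mouse hearts on the C57BL/6 background, 3 wild-type and 3 carrying a CRISPR-Cas9 knockout of Arrdc4. Arrdc4 encodes an arrestin-domain protein of the family that includes the glucose uptake regulator Txnip. The sources used here do not give the age, sex or litter of the mice, nor the number of founder lines behind the knockout hearts. RNA came from bulk heart tissue, so fewer cells of a type and less RNA per cell cannot be told apart in any value.

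A carrier of this family is built from a repeated unit of paired membrane helices, each with a short signature motif. The carrier opens by turns to the space between the membranes and to the matrix, so that one substrate is usually exchanged for another. Heart muscle lives on this traffic: ADP and phosphate enter for ATP synthesis, ATP leaves for contraction, acylcarnitines bring in fatty acids, and the malate-aspartate shuttle carries reducing power from glycolysis into the matrix.

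Sequences of the adenine nucleotide carriers are shown because they separate the muscle form, which supplies most of the family's reads, from the form found at very low levels that is described at the end. The ADP/ATP carriers share a run of 3 arginine and 3 methionine codons, which a search of the coding sequences found in 3 members, Slc25a4, Slc25a5 and Slc25a31. The capitals mark those 18 bases, with 30 bases on either side, 5′ to 3′, from GENCODE M21 transcripts on GRCm38.
Slc25a4: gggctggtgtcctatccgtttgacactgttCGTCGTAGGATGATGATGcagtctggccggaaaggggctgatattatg
Slc25a5: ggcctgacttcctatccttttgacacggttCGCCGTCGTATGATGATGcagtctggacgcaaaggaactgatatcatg
Slc25a31: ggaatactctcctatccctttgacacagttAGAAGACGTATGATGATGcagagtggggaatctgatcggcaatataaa
Across these 78 bases Slc25a4 and Slc25a5 differed at 14 positions, whereas Slc25a31 differed from each of them at 33. Over the whole coding sequence, Slc25a4 and Slc25a5 were 77.4% identical in bases and 89.6% in amino acids, and their longest identical run was 20 bases. Slc25a31 shared 73.0% of its amino acids with Slc25a4. No member had a 50-base stretch in common with another member's transcripts, so an exact match of 50 or more bases falls on 1 member at most. The carrier repeat motif, proline, any residue, an acidic residue, any pair of residues and a basic residue, occurred 3 times in 27 of the 47 members, 2 times in 12 and 1 time in 5, and was not found in Slc25a46, Slc25a51 or Slc25a53.

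The libraries held 29974501 to 41036626 counts, of which 21.8% to 27.7% fell on the mitochondrial genome. Arrdc4 stood at 11.0, 8.17 and 8.38 CPM (the count relative to the library size, scaled by the trimmed mean of M-values) in the wild-type hearts and at 0.117, 0.0344 and 0.0523 in the knockout hearts, so the labels and the targeted gene matched in all 6. It was the single gene of 14508 tested with an adjusted p under 0.05 in edgeR's quasi-likelihood test (log2 fold change -6.93, adjusted p = 0.00226), a background of 0.00689%. Wild-type replicate 3 and knockout replicate 2 were the most alike of all pairs of libraries, across genotype, and their deviations from their group means had a correlation of 0.684 across genes. The count of higher and lower members is therefore also given without these libraries.

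No carrier gene passed the test between the genotypes. In edgeR, 0 of the 39 tested members had an adjusted p under 0.05 and 0 had an unadjusted p under 0.05, against 1.23% of all genes tested for the latter. DESeq2 and limma-voom also gave 0 members at either threshold. The fitted fold changes leaned to one side: 32 of 39 members (82.1%) had a log2 fold change, knockout over wild type, below 0, against 47.7% of all genes tested. The lean was small, with a median of -0.08 over the members and 0.01 over all genes, and single members ran from -0.26 for Slc25a13 to 0.35 for Slc25a24 with standard errors of 0.13 to 0.34.

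The intervals give the range of change that each gene's values allow. They are not adjusted for the number of genes and do not say what size of change the test would have called. The 95% interval lay within 2-fold in both directions for 38 of the 39 members, against 76.5% of all genes tested, and reached past it for Slc25a24 alone. It lay within 1.5-fold for 23 members, against 39.7% of all genes tested. The median coefficient of variation over the 6 hearts was 14.2% for the members and 19.6% for all genes tested. Single members lay above the latter, among them Slc25a4 at 22.1%. Genes were not matched for level in these comparisons.

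**Figure D1:**
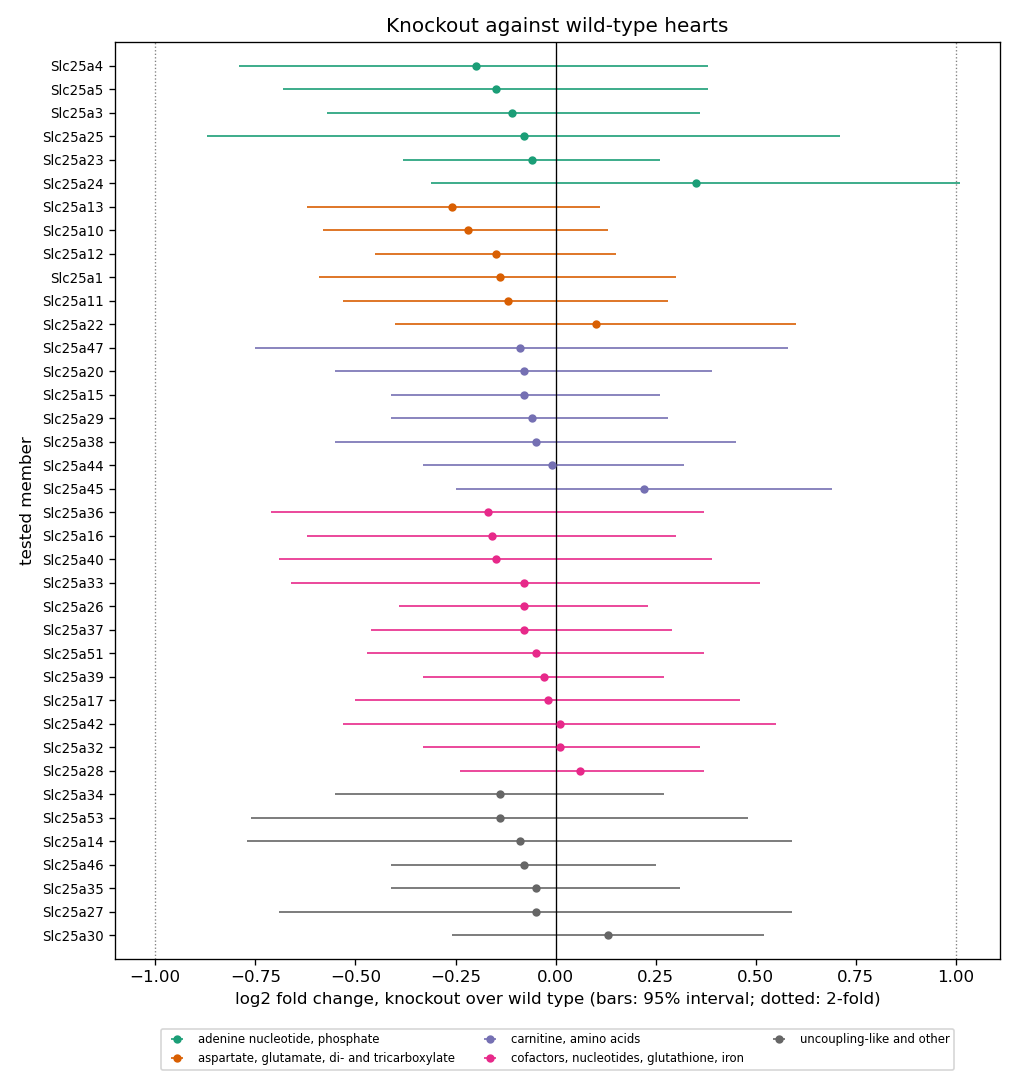
Log2 fold change of 38 of the 39 tested carrier genes, knockout over wild type, with its 95% interval from edgeR; colours give the kind of substrate and dotted lines a 2-fold difference. Every interval crosses 0, and most points lie left of it.

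The size of the lean varied with the hearts included. Knockout replicate 1 had the lowest level of the 6 hearts for 18 of the 39 members and knockout replicate 3 for 9, whereas wild-type replicate 3 and knockout replicate 2 each had the highest for 11. The median member stood 0.16 log2 units below its mean over the hearts in knockout replicate 1 (deviation -0.16) and 0.12 below in knockout replicate 3 (-0.12), and above it by 0.10 in wild-type replicate 3 and by 0.08 in knockout replicate 2. Over all genes tested the same medians lay between -0.01 and 0.02. Wild-type replicate 3 and knockout replicate 2 were both above the other 4 hearts for 17 members (43.6%; all genes 29.4%), and both below them for 2, Slc25a44 and Slc25a24 (5.13%; all genes 29.0%).

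Leaving out knockout replicate 1 brought the members to 17 higher and 22 lower with a median of -0.02. Without wild-type replicate 3 there were 13 higher and 26 lower, and without knockout replicate 3 12 higher and 27 lower, with medians of -0.04 and -0.05. The other omissions gave medians further below 0: -0.09 with 33 lower without wild-type replicate 1, -0.12 with 29 lower without wild-type replicate 2, and -0.19 with 31 lower without knockout replicate 2. With both wild-type replicate 3 and knockout replicate 2 left out, 34 of 39 were lower and the median was -0.17. The fitted sign turned in at least 1 of the single-library omissions for 20 members and held in all 6 for 19.

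Knockout replicate 1 also stood at an extreme on some lists of cell type markers, though not on all. The summed CPM of 6 fibroblast markers was 537, 739 and 486 in the wild-type hearts and 1166, 403 and 841 in the knockout hearts, with 5 of the 6 fitted higher in the knockout. The sum of 4 epicardial markers was 9.42, 4.02 and 4.44 against 25.7, 2.79 and 13.3, and that of 5 macrophage markers 66.9, 95.1 and 43.6 against 128, 31.3 and 78.0, and all members of both lists were fitted higher. No marker of these lists was called by edgeR or had 0 counts throughout. Knockout replicate 1 was highest on all of these lists, and knockout replicate 2 lowest. Knockout replicate 3 was next highest for the fibroblast and epicardial markers. Endothelial markers had the same ends, 962 and 690 CPM. Other lists had another order. The smooth muscle and pericyte sum was highest in wild-type replicate 3 (811 CPM). Red cell and neutrophil sums were highest in knockout replicate 2 (800 and 4.27 CPM). The sum of 8 cardiomyocyte markers ranged from 65217 to 71564 in wild-type and from 64295 to 74384 in knockout hearts, with knockout replicate 1 the lowest of the 6. Single markers did not move together in that heart. Tnnt2, Tnni3, Myl2, Mb and Pln were lowest there, whereas Actc1 was highest at 10498 CPM. Myh6 (22887 CPM) and Ryr2 (1629 CPM) were above wild-type replicates 1 and 3. The part of these markers in the carrier levels was not tested.

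**Figure D2:**
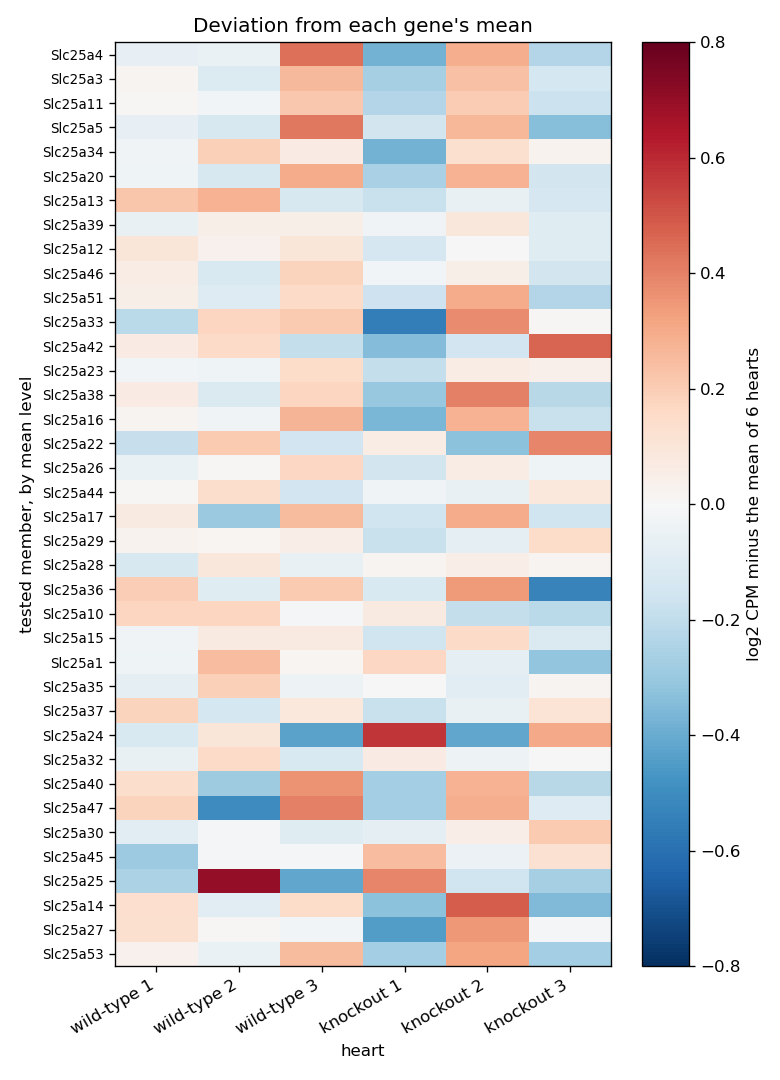
Heat map of the log2 deviation of 38 of the 39 tested carrier genes (rows, by mean level) from its mean over the 6 hearts (columns), red above and blue below that mean. Members in knockout replicates 1 and 3 centre below 0 (medians over all 39 of -0.16 and -0.12) and those in wild-type replicate 3 and knockout replicate 2 above it (0.10 and 0.08).

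The family as a whole took about 1 in 100 reads of the heart, and most of them came from a single gene. The members together held 0.99%, 0.928% and 1.13% of the counts in the wild-type hearts and 0.808%, 1.04% and 0.885% in the knockout hearts. Summed over members, this was 10253 ± 1612 CPM in wild-type and 9153 ± 1913 CPM in knockout hearts (SD, n = 3 each), and the groups overlapped. Slc25a4 alone supplied 53.6% to 60.2% of the family's reads in a heart, and the top 5 genes 84.4% to 88.3%.

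Carriers of adenine nucleotides and phosphate serve ATP synthesis directly. The group has 8 members, of which 6 were tested, 5 fitted lower and 1 higher, with a median log2 fold change of -0.10. Slc25a4, which encodes ANT1, the ADP/ATP exchanger of heart and skeletal muscle (chr8:46206797-46211284, minus strand, GRCm38), had 5152, 5188 and 7295 CPM in the wild-type hearts and 4138, 6591 and 4579 CPM in the knockout hearts. Wild-type replicate 3 and knockout replicate 2 were the highest and the groups overlapped, and the fitted log2 fold change was -0.20 (SE 0.25, 95% interval -0.79 to 0.38). Omitting knockout replicate 2 moved it to -0.43, and omitting wild-type replicate 3 instead moved it to -0.02. Its level per kilobase of exon was 2498 ± 522 CPM in wild-type and 2169 ± 556 CPM in knockout hearts, the highest of the family.

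Slc25a5 encodes ANT2, the ADP/ATP exchanger of most other tissues and of dividing cells (chrX:36795651-36798807, plus strand). It was measured at 282, 270.2 and 396 CPM in wild-type and 267, 355 and 234 CPM in knockout hearts, with the same pair of hearts on top. Of its 50-base stretches 33.8% also occur in transcripts of 9 other genes, led by the processed pseudogene Gm5560. Gm5560 itself had 37 reads over all libraries, but some Slc25a5 reads may have been dropped or counted in the others. Slc25a5 levels are therefore uncertain. Per kilobase, Slc25a4 exceeded Slc25a5 by 12.8-, 13.4- and 12.9-fold in wild-type and by 10.8-, 13.0- and 13.7-fold in knockout hearts. The ratio did not differ between genotypes beyond its spread, with a log2 difference of -0.07 (SE 0.10, exact permutation p = 0.9, two-sided).

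**Figure D3:**
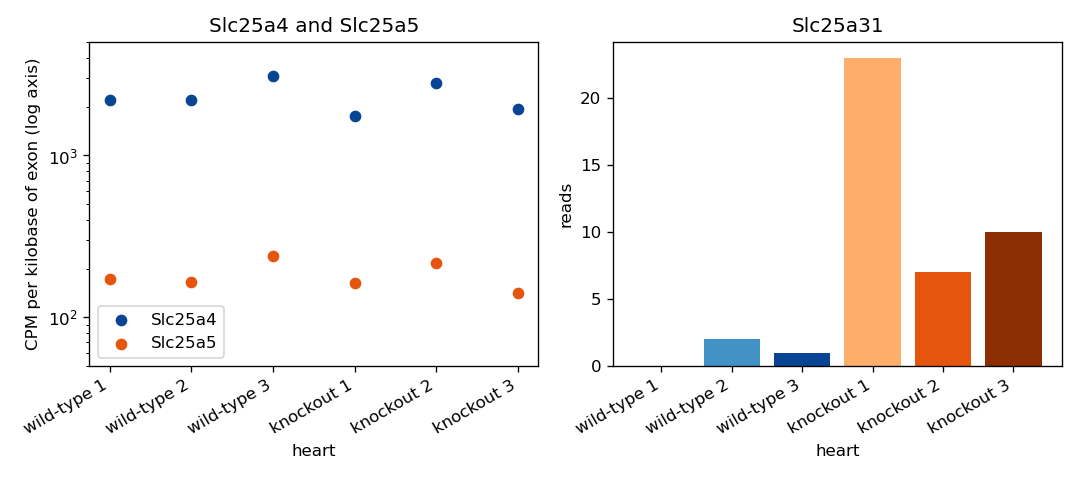
Slc25a4 and Slc25a5 in each heart, in CPM per kilobase of exon on a log axis (left), and the raw reads of Slc25a31 (right, bars). Slc25a4 and Slc25a5 overlap between the genotypes, while Slc25a31 has 0 to 2 reads in wild-type and 7 to 23 in knockout hearts.

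Slc25a3, the phosphate carrier, which brings in phosphate for ATP synthase, had the second highest level. It stood at 1798, 1642 and 2117 CPM in wild-type and 1475, 2079 and 1608 CPM in knockout hearts, a log2 fold change of -0.11 (SE 0.20). Again wild-type replicate 3 and knockout replicate 2 were highest and the groups overlapped, and the value was -0.27 when the latter was omitted and 0.00 when the former was. Slc25a23, Slc25a24 and Slc25a25 encode calcium-regulated exchangers of ATP-magnesium for phosphate, which set the matrix pool of adenine nucleotides.

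Slc25a24 had the largest fitted fold change of the 39 tested members, on a low level. Its CPM was 4.40, 5.11 and 3.55 in wild-type and 7.11, 3.58 and 5.91 in knockout hearts, a log2 fold change of 0.35 (SE 0.28, 95% interval -0.31 to 1.01). Knockout replicates 1 and 3 were above every wild-type heart, and knockout replicate 2 lay among them. Without knockout replicate 2 the value was 0.58, and without knockout replicate 1 it was 0.13. The fibroblast marker sums above put the hearts in nearly the same order, with knockout replicates 1 and 3 highest and knockout replicate 2 and wild-type replicate 3 lowest; their part in this value was not tested. Slc25a23 (-0.06) and Slc25a25 (-0.08, SE 0.34) lay near 0, and Slc25a25 ranged from 4.44 CPM in wild-type replicate 3 to 9.63 CPM in wild-type replicate 2.

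Carriers of aspartate, glutamate, oxoglutarate, dicarboxylates and citrate include the malate-aspartate shuttle. Of 8 members 6 were tested, 5 fitted lower and 1 higher, with a median of -0.15. Slc25a11, the exchanger of oxoglutarate for malate, was measured at 503, 493 and 580 CPM in wild-type and 426, 575 and 444 CPM in knockout hearts. Knockout replicates 1 and 3 lay below all wild-type hearts, and knockout replicate 2 lay within their range (log2 fold change -0.12, SE 0.17).

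The aspartate-glutamate exchangers drive the shuttle and are activated by calcium. Slc25a12, which encodes aralar, known as the form of heart, muscle and brain, had 264, 253 and 264 CPM in wild-type and 225, 247 and 231 CPM in knockout hearts. It was the single tested member whose groups did not overlap, 2.56% of the members against 4.07% of all genes tested. The means were 260.1 ± 6.56 and 234 ± 11.4 CPM (SD, n = 3 each) and the log2 fold change was -0.15 (SE 0.13, 95% interval -0.45 to 0.15, edgeR adjusted p = 1).

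Slc25a13 encodes citrin, the form known from liver. Its CPM was 195, 203 and 153 in wild-type and 148, 160.1 and 152 in knockout hearts, a log2 fold change of -0.26 (SE 0.16). Wild-type replicates 1 and 2 were above all other hearts, and wild-type replicate 3 lay among the knockout hearts. Its unadjusted p of 0.141 in edgeR was the smallest among the members. With wild-type replicate 3 and knockout replicate 2 both left out, the value was -0.41 (SE 0.11, edgeR unadjusted p = 0.00768, adjusted p = 0.686), the single member under 0.05 unadjusted in that fit. That is 1 of 39, or 2.56% of the members, against 6.71% of all genes in the same fit.

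The per-kilobase ratio of Slc25a12 to Slc25a13 was 0.746 ± 0.131 in wild-type and 0.79 ± 0.00753 in knockout hearts (SD, n = 3 each). It ran from 0.644 to 0.894, so per kilobase the Slc25a13 transcript was the higher in every heart. The log2 difference of 0.10 (SE 0.14) lay within the spread (exact permutation p = 0.5). Slc25a10, the dicarboxylate carrier, stood at 13.5, 13.5 and 11.9 CPM in wild-type and 12.6, 10.5 and 10.3 CPM in knockout hearts (log2 fold change -0.22, SE 0.15). Knockout replicates 2 and 3 were below all wild-type hearts and knockout replicate 1 was not.

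Slc25a22 and Slc25a18 both carry glutamate with protons, and the heart libraries held almost only the former. Slc25a22 had 35.5, 46.8 and 36.4 CPM in wild-type and 42.2, 32.2 and 53.1 CPM in knockout hearts, with no order by genotype (log2 fold change 0.10, SE 0.21). Slc25a18 had 1, 5 and 1 reads in wild-type and 5, 3 and 2 reads in knockout hearts, too few for their ratio to be compared. Slc25a1, the citrate carrier that feeds cytosolic acetyl-CoA, had a log2 fold change of -0.14.

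Carriers of carnitine and amino acids had 7 of 9 members tested, 6 lower and 1 higher, with a median of -0.06. Slc25a20, the carnitine-acylcarnitine exchanger that admits long-chain fatty acids for oxidation, had 247, 231 and 311 CPM in wild-type and 211, 306 and 228 CPM in knockout hearts (log2 fold change -0.08, SE 0.20). Wild-type replicate 3 and knockout replicate 2 were the highest, and the other 4 hearts lay close together. Slc25a45 had 1.83, 2.21 and 2.21 CPM in wild-type and 2.66, 2.17 and 2.43 CPM in knockout hearts (log2 fold change 0.22, SE 0.20), with knockout replicate 2 inside the wild-type range. Slc25a44, a carrier of branched-chain amino acids, Slc25a38, linked to glycine import for haem synthesis, Slc25a15, the ornithine carrier of the urea cycle, and Slc25a29, a carrier of basic amino acids, had log2 fold changes of -0.01, -0.05, -0.08 and -0.06.

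Carriers of cofactors, nucleotides, glutathione and iron were all tested, 13 of 13, with 10 lower, 3 higher and a median of -0.08. Slc25a39, needed for glutathione import, was among the steadiest genes, at 103, 111 and 111 CPM in wild-type and 105, 114 and 100.1 CPM in knockout hearts (log2 fold change -0.03, SE 0.13). Its relative Slc25a40 had 10.9, 8.12 and 12.7 CPM in wild-type and 8.21, 12.0 and 8.48 CPM in knockout hearts (log2 fold change -0.15, SE 0.23), and its groups overlapped. The per-kilobase ratio of Slc25a39 to Slc25a40 was 32.4 ± 8.21 and 34.6 ± 5.28 (exact permutation p = 0.8).

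The mitoferrins Slc25a28 and Slc25a37 import iron, the latter being the form of red cell precursors. Slc25a28 had 13.4, 15.6 and 14.1 CPM in wild-type and 14.9, 15.2 and 14.9 CPM in knockout hearts, and Slc25a37 had 10.1, 8.09 and 9.46 CPM against 7.86, 8.54 and 9.63 CPM. Neither separated the genotypes (log2 fold changes 0.06, SE 0.13, and -0.08, SE 0.16). The pyrimidine nucleotide carriers did not separate the genotypes. Slc25a36 had 40.0, 32.6 and 40.4 CPM in wild-type and 32.1, 44.2 and 24.1 CPM in knockout hearts, and Slc25a33 had 19.2, 25.2 and 25.8 CPM against 15.2, 29.0 and 22.5 CPM. Both ran from below to above the wild-type range within the knockout group, with log2 fold changes of -0.17 (SE 0.23) and -0.08 (SE 0.25).

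Their per-kilobase ratios did not separate the genotypes either. Slc25a28 to Slc25a37 stood at 2.54 ± 0.492 in wild-type and 2.80 ± 0.293 in knockout hearts (exact permutation p = 0.5), and Slc25a36 to Slc25a33 at 0.324 ± 0.0785 and 0.309 ± 0.103 (exact permutation p = 0.8). After Benjamini-Hochberg adjustment over the 5 pairs compared, every exact permutation p was 0.9, and 3 hearts against 3 cannot go below 0.1.

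Slc25a42, the coenzyme A carrier, spanned 40.3 to 70.8 CPM within the knockout group alone (log2 fold change 0.01, SE 0.23). The S-adenosylmethionine carrier Slc25a26 (-0.08) and the folate and FAD carrier Slc25a32 (0.01) lay close to 0. So did the peroxisomal carrier Slc25a17 (-0.02) and the NAD carrier Slc25a51 (-0.05). Slc25a16 was fitted at -0.16 (SE 0.20), and at -0.36 to -0.03 with single libraries left out.

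Members related to the uncoupling proteins, and others without an assigned substrate here, had 7 of 9 tested, 6 lower and 1 higher, with a median of -0.08. Slc25a34 led them, at 228, 266 and 244 CPM in wild-type and 179, 254 and 237 CPM in knockout hearts, with knockout replicate 1 alone below the wild-type range (log2 fold change -0.14, SE 0.17). Slc25a14, Slc25a27 and Slc25a30, the uncoupling-like carriers, had log2 fold changes of -0.09, -0.05 and 0.13. Slc25a46, an outer membrane protein of mitochondrial shape, Slc25a35 and Slc25a53 had values of -0.08, -0.05 and -0.14. A 25.0% share of the 50-base stretches of Slc25a35 also occurs in other transcripts, chiefly of Rangrf on the opposite strand. Other members overlap exons of genes with more reads, also on the opposite strand. Slc25a26 (6107 reads) overlaps Lrig1 (8461), and Slc25a25 (1342) overlaps Naif1 (983). Slc25a11 (105834) overlaps Rnf167 (7679), and Slc25a18 (17) overlaps Atp6v1e1 (23743). With the strand setting unknown, some of their reads may belong to the other gene.

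Per kilobase of exon, the order of the leading members in wild-type hearts was Slc25a4, then Slc25a3 at 334 ± 43.6 CPM, Slc25a11 at 248 ± 22.5, Slc25a5 at 192 ± 42.3, Slc25a34 at 92.2 ± 7.08, Slc25a20 at 54.3 ± 8.78, Slc25a13 at 48.3 ± 7.07 and Slc25a39 at 39.4 ± 1.62 (SD, n = 3). Within single hearts of either genotype, each of the first 5 exceeded the next in all 6 by this length. The margin was as little as 1.14- to 1.47-fold for Slc25a11 over Slc25a5. Slc25a20 and Slc25a13 had no fixed order, with ratios of 0.891 to 1.6 and Slc25a20 higher in 4 of 6 hearts. Slc25a13 exceeded Slc25a39 by 1.02-fold or more in 5 hearts, and they were level in wild-type replicate 3. The knockout hearts had the same genes at 310 ± 57.2, 227 ± 38.3, 173 ± 37.8, 83.6 ± 14.7, 51.3 ± 10.4, 40.4 ± 1.59 and 38.6 ± 2.48 CPM per kilobase, from Slc25a3 to Slc25a39. The least abundant tested member, Slc25a53, stood at 0.177 ± 0.0197 CPM per kilobase in wild-type hearts. With the length of the principal transcript in place of all exons, the same 8 genes led in another order. Slc25a20 then came before Slc25a34, and Slc25a39 before Slc25a13. In wild-type hearts Slc25a4 stood at 3050 ± 637 and Slc25a3 at 1150 ± 150 CPM per kilobase by that length. Slc25a3 rose most among these because its annotated exons add up to 5550 bases and its principal transcript to 1612.

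**Figure D4:**
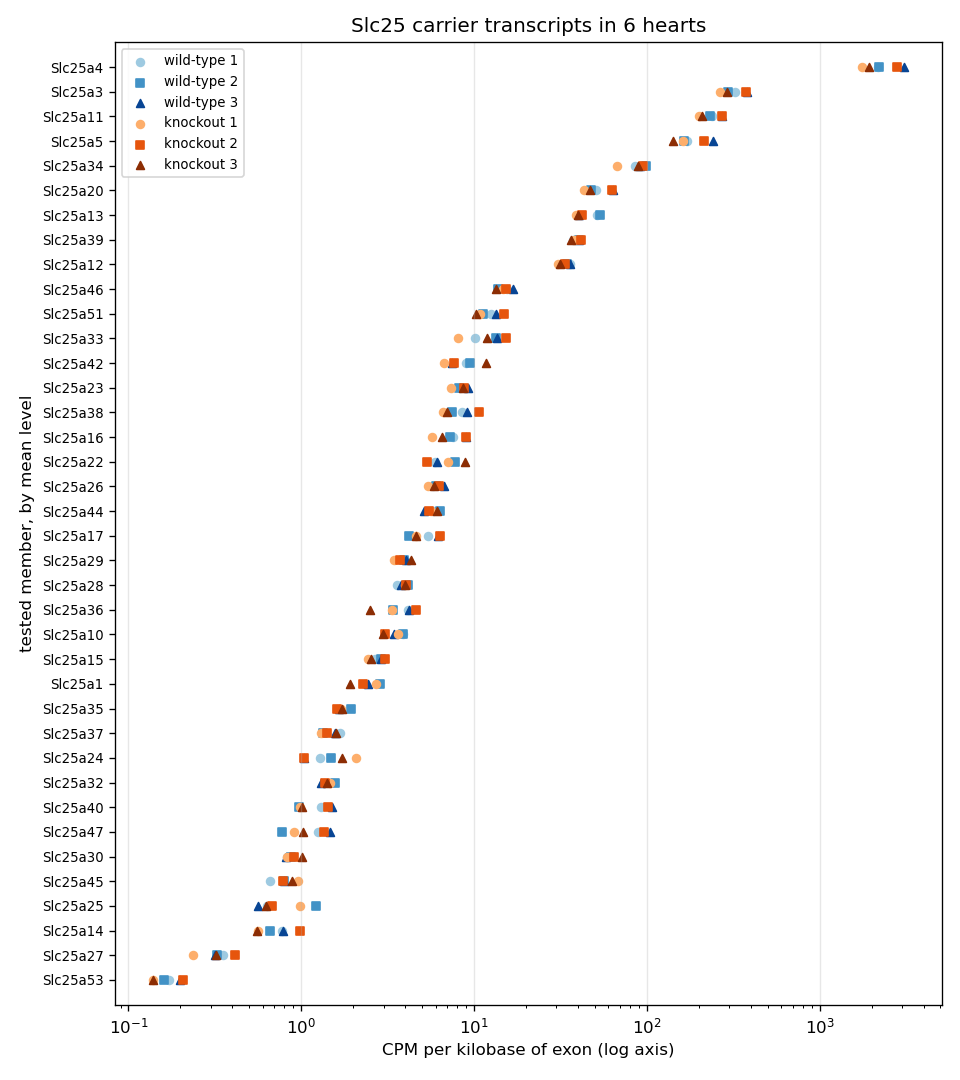
Level of 38 of the 39 tested carrier genes in each of the 6 hearts, in CPM per kilobase of exon on a log axis, ordered by mean. Levels run from Slc25a4, near 2498 in wild-type hearts, to Slc25a53, near 0.177, and the genotypes overlap for every gene but Slc25a12.

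Most carriers are made without a cleaved presequence and reach the inner membrane through the receptor Tomm70, small TIM chaperones and the TIM22 complex. Of 16 genes of this machinery, some of which also serve other imported proteins, 1 was fitted higher and 15 lower, with a median of -0.11 and 0 called by edgeR. Their summed CPM was 1046, 909 and 1418 in wild-type and 880.4, 1383 and 859.9 in knockout hearts, again with wild-type replicate 3 and knockout replicate 2 on top. Agk, a subunit of the TIM22 complex, had a log2 fold change of -0.15 (SE 0.13), and Tomm70a, the receptor, -0.10 (SE 0.14).

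Enzymes that use the carried substrates gave 4 higher and 15 lower of 19, with a median of -0.06 and 0 called. Got1, the cytosolic aspartate aminotransferase of the malate-aspartate shuttle, had a log2 fold change of -0.31 (SE 0.16), and Nnt, the proton-driven transhydrogenase that makes matrix NADPH, -0.42 (SE 0.29). Nnt had 942, 996 and 658 CPM in wild-type and 421, 670.3 and 848 CPM in knockout hearts. Its groups overlapped, with knockout replicate 1 the lowest. Other transporters of the mitochondrial membranes split evenly, 11 higher and 11 lower of 22, with a median of -0.01 and 0 called. Among these, the ABC transporter Abcb10 stood at -0.15 (SE 0.13) and the calcium uniporter Mcu at -0.12 (SE 0.17).

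Proteins of the carrier fold with other names had 4 of 5 genes tested, 3 higher and 1 lower, with a median of 0.05 and 0 called. Ucp2 had a log2 fold change of 0.17 (SE 0.16) and Mtch1, an outer membrane protein, 0.09 (SE 0.12). Ucp3, the muscle uncoupling protein, had 59.9, 116 and 66.9 CPM in wild-type and 80.1, 53.0 and 111 CPM in knockout hearts, without an order by genotype. Ucp1, the defining gene of brown fat, had 1 read in all, in wild-type replicate 1. Over these 4 lists of related genes the smallest unadjusted p in edgeR was 0.102, for Got1.

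Of the 8 members that were not tested, Slc25a31 reached 23 reads in a library and the others 7 or fewer. Slc25a2 reached at most 5 reads in a library, Slc25a43 7, Slc25a21 2, and Slc25a41 and Slc25a48 1 each, and Slc25a54 had 0 in all 6. The ornithine carrier Slc25a2 and the oxodicarboxylate carrier Slc25a21 had too few reads to be compared between the genotypes.

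Slc25a31 separated the genotypes, on very few reads, and it is described here because of those values. It encodes ANT4, the ADP/ATP exchanger known from male germ cells (chr3:40708855-40726096, plus strand, GRCm38). It had 0, 2 and 1 reads in the wild-type hearts and 23, 7 and 10 reads in the knockout hearts, so every knockout heart was above every wild-type heart. Scaled for library size this was 0, 0.0532 and 0.0298 CPM against 0.536, 0.241 and 0.262 CPM. The 40 knockout reads against 3 wild-type reads gave a ratio of 12.7. Its exact 95% interval of 4.03 to 64.0 pools reads over hearts, so it covers counting error only and not the spread between hearts. Without knockout replicate 1 there were 17 knockout reads and a ratio of 8.64 (2.5 to 46.0). Leaving out wild-type replicate 3 and knockout replicate 2 left 0 and 2 reads against 23 and 10.

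With every knockout heart above every wild-type heart, the exact two-sided permutation p over the hearts is fixed at 0.1. That is the smallest that 3 against 3 allows, and it adds no support to values chosen for this order. Of the 2036 untested genes with 20 to 100 reads in all, 119 (5.84%) likewise had all knockout hearts above all wild-type hearts. The read ratios above and the fits below rest on the same values, so they add no support either. Slc25a31 did not pass the filter on low counts. In a fit of all 25672 genes with a count, edgeR gave it a log2 fold change of 3.46 (SE 0.79, unadjusted p = 0.000633, adjusted p = 1), and DESeq2 gave 3.59 (SE 1.12, adjusted p = 1).

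Its transcripts share no exact 50-base stretch with any other gene. The length of the reads and the mismatches allowed in matching them are not known here, and whether any of its reads came from another carrier was not tested. The genes next to it did not separate the genotypes: Intu, upstream on chromosome 3, had a log2 fold change of -0.10 (SE 0.24), Hspa4l, downstream, -0.19 (SE 0.17), and Plk4 beyond it 0.35 (SE 0.26). Even in knockout hearts its reads were a small trace beside the 4138 CPM or more of Slc25a4.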

How the data were processed

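RNA of 6 hearts was analysed from the authors' deposited table of read counts per gene, which are whole numbers without normalization. Per the submitters' processing notes, the tools were STAR, featureCounts, Subread 1.5.2 and DESeq2 and the build was GRCm38.p6, with no roles named. The sources used here do not give the annotation release, the strand setting or how multiply matching reads were handled, so values of genes that overlap or share sequence are uncertain. Symbols, exon lengths, positions and sequences came from GENCODE M21 (GRCm38), and 48970 of 49315 identifiers matched a symbol.

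Genes were kept with filterByExpr (minimum count 10, minimum total 15), which left 14508. Knockout was compared with wild type by edgeR 4.0.16 (R 4.3.3; TMM scaling, quasi-likelihood test), with Benjamini-Hochberg adjustment over all genes kept and a threshold of 0.05. Fold changes had a median standard error of 0.23, from a biological coefficient of variation of 24.2%. Levels are CPM, also per kilobase of all annotated exons. Ratios of related carriers were compared by exact two-sided permutation tests.

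Values by heart are given for the 8 members highest per kilobase, the 6 with the smallest unadjusted p and 6 pairs of relatives. From each list of related genes that had none past the threshold, the 2 with the smallest p are named, and Ucp3, Ucp1 and Slc25a31 were added after their values were seen. The values of 1 member are not reported here, though counts and medians include it. Members and lists were chosen with earlier results of these data known. Alternatives were other scalings and filters, DESeq2 1.42.0, limma-voom 3.58.1, a robust fit, a replicate block, a length offset (spline, 6 df) and leaving out libraries. The comparison of exon with principal transcript length was chosen after seeing the data. In simulated counts for the 14508 genes, edgeR called 50 of 50 genes changed 4-fold, 27 of 50 changed 2-fold and 4 of 50 changed 1.5-fold.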

Additional observations from a re-analysis of the deposited data

How the results depend on the processing

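No member passed the threshold under any alternative, so calls did not depend on the settings tried. The median of the members stayed below 0 in every fit, from -0.19 to -0.02. The number fitted higher was 5 to 8 of 39 under other scalings, filters, tools, the length offset and with wild-type replicate 3 and knockout replicate 2 both left out, and 6 to 17 when 1 library was left out. The sources used here do not say what the shared replicate numbers mean. Hearts of the same number had correlations of deviations of 0.184, -0.649 and -0.399 for numbers 1, 2 and 3. These cannot decide whether the hearts were paired, since deviations from a mean of 3 hearts are tied to one another. With a replicate block 6 members were higher, the median was -0.08 and 0 were called. Signs turned for small values. Slc25a44 became 0.01 with library size alone and 0.01 without a filter. Slc25a42 became -0.02 in limma-voom, -0.03 with the replicate block and -0.03 with the length offset, and Slc25a32 became -0.04 with the offset and -0.03 with both libraries left out. With single libraries left out, log2 fold changes ran from -0.41 to 0.06 for Slc25a14, -0.19 to 0.11 for Slc25a17, -0.26 to 0.06 for Slc25a20, -0.09 to 0.27 for Slc25a22, -0.10 to 0.02 for Slc25a23, -0.32 to 0.34 for Slc25a25 and -0.26 to 0.13 for Slc25a27. They ran from -0.16 to 0.01 for Slc25a29, -0.04 to 0.10 for Slc25a32, -0.32 to 0.13 for Slc25a33, -0.10 to 0.03 for Slc25a35, -0.42 to 0.02 for Slc25a36, -0.31 to 0.07 for Slc25a38, -0.08 to 0.01 for Slc25a39 and -0.34 to 0.01 for Slc25a40. For Slc25a42 they ran from -0.27 to 0.17, for Slc25a44 from -0.08 to 0.07, for Slc25a47 from -0.31 to 0.11, for Slc25a5 from -0.34 to 0.05 and for Slc25a51 from -0.24 to 0.05. The cause was not tested. The summed level differed by -0.16 to -0.18 log2 units under every scaling. With 3 hearts a group, changes of 2-fold or less were often missed in simulated data. Genes were drawn there independently of each other, without the likeness of wild-type replicate 3 and knockout replicate 2, so power in the real hearts may differ.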
